A study of Homo sapiens with 16 samples.

Results

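Of 13398 sites listed as pseudouridine in RNA of HEK293T cells, 10559 were assigned to protein-coding genes, and 899 of these (8.51%, 95% Clopper-Pearson interval 7.99 to 9.06%) stood in an 11-base sequence that was listed again in another protein-coding gene. The 11-base context has the site at its base 6. A site was counted when its gene type was protein-coding and its context was listed under at least 2 different coding gene symbols. The 899 sites carried 358 contexts out of 10017 distinct coding contexts and fell in 791 of the 5225 coding genes with a site. They are called repeated sites here and are set against the 9658 coding sites whose context was listed once, called unique sites. A remaining 2 coding sites repeated a context within 1 gene symbol and were left out.

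Pseudouridine is uridine with its base turned and rejoined through carbon. Pseudouridine synthases make it in RNA and recognise either a short sequence in a structure or, with a guide RNA, a matching target. PRAISE-seq reads it through a bisulfite adduct that reverse transcriptase skips, so the share of reads with a deletion at a uridine is the measure, called the deletion level. An identical short sequence in several genes can come from low-complexity tracts, from interspersed repeats, from copies of structured RNAs scattered over the genome, or from duplicated genes. A deletion within a run of uridines cannot be assigned to 1 base, and a read from one copy of a duplicated sequence can be placed at another.

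The labels describe 16 libraries in 6 groups. HEK293T, a human embryonic kidney line, gave 2 bisulfite-treated and 2 untreated control libraries. HEK293T cells with PUS1, PUS7 and RPUSD4 knocked out, which serve the study as its negative control, gave 3 treated and 3 untreated libraries, and HuCCT1, a bile duct cancer line, gave 3 treated and 3 input libraries. The RNA had been depleted of ribosomal RNA. The site table has no column per library, and the sources used here do not give which libraries were pooled in it, so levels carry no replicate error and every interval covers counting error only. Coordinates are those of hg38. Levels started at 5%, coverage at 15 reads and deletion reads at 3. Of the repeated sites, 368 (40.9%) had exactly 3 deletion reads, against 37.1% of the unique sites.

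The contexts that carry the results are shown with the listed uridine, written T as in the table, in capitals. The first set holds contexts among the 8 listed under the most genes, 5 of which are printed here. It was chosen to show the uridine run and the side of the run at which the site was listed. In context 3 the listed base is followed by another uridine of its run.
Context 1, 22 genes: tttttTgagac
Context 3, 12 genes: tttttTtgaga
Context 5, 11 genes: tttttTctttt
Context 6, 7 genes: ctttcTttttt
Context 8, 7 genes: tttttTgagat
The second set holds contexts listed at copies of structured RNAs, with the coding genes named. The context near that of 28S is shown beside it and was not itself listed at a structured RNA.
28S rRNA, RYR2 and AAMDC: gagctTgactc
Near the 28S context, RYR2 and AAMDC: cctacTatcca
U3 snoRNA, ADGRB3 and DIP2B: agaagTttctc
5S rRNA, RBMS3 and HINT3: ggtggTatggc
tRNA, KNL1, ZBED9 and PLLP: gtgggTtcgaa
tRNA, CTC1 and HMGN4: ctgggTtcgaa
tRNA, VAC14 and NCOA7: ccgggTtcgat
tRNA, HJV and DPP9: ggtggTatagt
The third set holds contexts of high levels or of pairs of genes with the smallest p in the test of equal levels, described further on.
CELF1 and 5 other genes: tttttTgtttt
NOTCH2, NBPF26 and NOTCH2NLC: tgaacTctgcc
NF2 and MATR3: tcactTgagcc
SETD3 and HDLBP: attacTttcct
TTC28 and UTRN: aaagaTgaaga
EIF2B3 and TSHZ2: gtttgTttgtt

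Repeated contexts were above all uridine-rich. A run of at least 5 uridines covered the site at 441 of the 899 repeated sites (49.1%, interval 45.7 to 52.4%) and at 777 unique sites (8.05%, 7.51 to 8.61%). A run of exactly 6 within the window was found at 338 repeated sites (37.6%) and 310 unique ones (3.21%). A lone uridine was found at 18.9% of the repeated and 43.0% of the unique sites. Contexts of at most 2 different bases made up 29.5% of the repeated and 2.77% of the unique sites, and at least 8 of the 11 bases were pyrimidines at 61.5% and 29.4%. A tandem unit of 1 to 4 bases filled the window at 39 repeated sites (4.34%) and 10 unique ones (0.104%). These features overlap, and the rule that chose the sites favours words that are common in the genome.

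**Figure D1:**
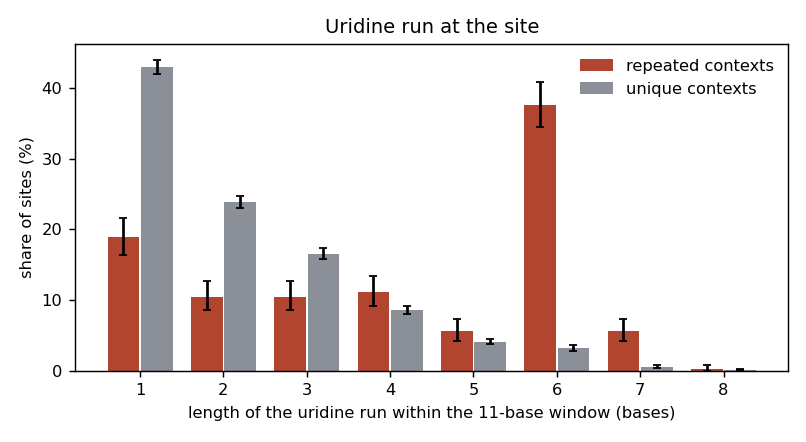
Share of coding sites (percent, vertical axis) by the length in bases of the uridine run that holds the site (horizontal axis), for repeated and unique contexts; error bars are 95% Clopper-Pearson intervals. Repeated contexts had a peak at a run of 6 (37.6% against 3.21%), and unique contexts were mostly at a lone uridine (43.0% against 18.9%).

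The listed base mostly sat at a fixed end of its run. In runs of at least 2 on the plus strand, the site was the last uridine of the run at 383 of 422 repeated sites (90.8%, interval 87.6 to 93.4%) and 87.3% of unique sites. On the minus strand it was the first uridine at 267 of 307 repeated sites (87.0%, 82.7 to 90.5%) and 84.8% of unique sites. Both are the end with the higher genomic coordinate. The opposite end was listed at 3 of the 422 plus-strand sites (0.711%) and 9 of the 307 minus-strand sites (2.93%). The remaining sites, among them the 12 of context 3, lay inside their run. With sites placed mostly at the end of higher coordinate, a tract copied in both orientations mostly gives 2 different contexts. Each of the 8 contexts with the most genes lay on 1 strand only: contexts 1, 3, 5 and 8 on plus and the other 4 on minus. On the plus strand alone 179 contexts were repeated, and on the minus strand alone 140.

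Context 1, a uridine run followed by GAGAC, was listed at 22 sites in 22 genes on 13 chromosomes, all on the plus strand, 20 of them intronic. Its median level was 15.4% at 15 to 73 reads. PIP5K1A, a lipid kinase that makes phosphatidylinositol bisphosphate, had the highest level with 33.3% (6 of 18 reads). CCAR1, a transcriptional coactivator, had the lowest with 5.4% (3 of 56 reads). The word was also listed at 4 sites outside coding genes. Inverted copies of the Alu repeat, the most abundant short interspersed element of primates, read as a uridine run followed by GAGAC. Repeat annotation was not analysed here, so how many of these sites lay in Alu copies was not tested.

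Runs of at least 6 uridines followed by GAG took 46 repeated sites at 4 contexts in 43 genes, all 46 on the plus strand and 38 (82.6%) intronic, with a median level of 15.4% (interval 12.9 to 17.6%) and a median coverage of 22 reads. Only 6 unique sites had that form. Contexts 1, 3 and 8 are of this form. Context 3 had a median level of 14.3%, from 5.5% in SPG7, a mitochondrial protease, to 18.8% in USP47, a ubiquitin-specific protease. Context 8 had 17.6%, from 9.4% in CFAP126, a ciliary protein, and ARCN1, a coatomer subunit, to 26.7% in C18orf25. Each extreme of these contexts rested on 3 to 6 deletion reads.

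The other frequent contexts were also rich in uridine. Context 5 was intronic at 3 of its 11 sites, against 20 of 22 for context 1, and had a median of 13.8%, from 7.7% in DNAJC10, a chaperone of the endoplasmic reticulum, to 23.1% in PDE4A, a cyclic AMP phosphodiesterase. Context 6 had a median of 12.5%, with 18.5% in ROBO1, an axon guidance receptor, as its highest and 5.3% in ENSG00000259316 as its lowest. Contexts 2, 4 and 7 had medians of 11.1%, 12% and 13.6% over 14, 11 and 7 sites. The highest were SREK1IP1 and DLG2 with 17.6% each, CCDC14 with 33.3% and SLFN12L with 16.7%. The lowest were GNB1 and TENM1 with 7% each, GBE1 with 6.1% and SPDYE10 with 5.3%.

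Most contexts were shared narrowly. Of the 358, 279 were listed under 2 genes (558 sites), 60 under 3 or 4 (191 sites) and 19 under 5 or more (150 sites). Runs of at least 5 uridines covered 35.5% of the sites shared by 2 genes, 63.4% of those shared by 3 or 4 and 81.3% of those shared by 5 or more. The median level was 11.6% (interval 11.1 to 12.5%), 13.3% (11.4 to 14.3%) and 14.1% (12.5 to 15.4%) in that order, and the median coverage was 33, 31 and 26 reads. The minimum of 3 deletion reads sets a higher floor on the level at thinner coverage. Of the 791 genes, 699 held 1 repeated site, 81 held 2 and 11 held 3 or more. TENM1, a teneurin adhesion gene, held 6, and ZZZ3, a subunit of a histone acetyltransferase complex, and XKR6 held 4 each.

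How common the contexts are as words was measured in promoter sequence. Among 34943 RefSeq promoter windows of GRCh38.p14 (250 bases before to 50 after a start), a repeated context was held, on either strand, by a median of 14 windows (quartiles 6 and 32, at most 504), and a unique context by 5 (3 and 10). Without long runs and simple sequence the medians were 7 and 5, over 161 and 8673 contexts. Context 1 was in 15 windows (0.0429%), context 5 in 147 (0.421%). A match says only that the letters occur there. How common the words are in introns, where most repeated sites lay, was not measured.

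Repeated sites lay in introns more often than unique sites. Introns held 602 of the 899 repeated sites (67.0%, interval 63.8 to 70.0%) and 5307 of the 9658 unique ones (54.95%, 53.95 to 55.95%). Exons held 58 (6.45%, 4.94 to 8.26%) and 1777 (18.4%, 17.6 to 19.2%). The 3'UTR held 116 (12.9%, 10.8 to 15.3%) against 15.3%, promoters 62 (6.90%) against 6.15%, and intergenic sequence 34 (3.78%, 2.63 to 5.25%) against 1.74% (1.49 to 2.02%). Termination regions held 2% and 2.15%, and the 5'UTR 1.00% and 1.32%. Without runs of at least 5 uridines and simple sequence, the intronic shares were 60.2% and 53.4%. The intervals treat sites as independent, which sites of 1 gene or 1 repeat family are not.

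**Figure D2:**
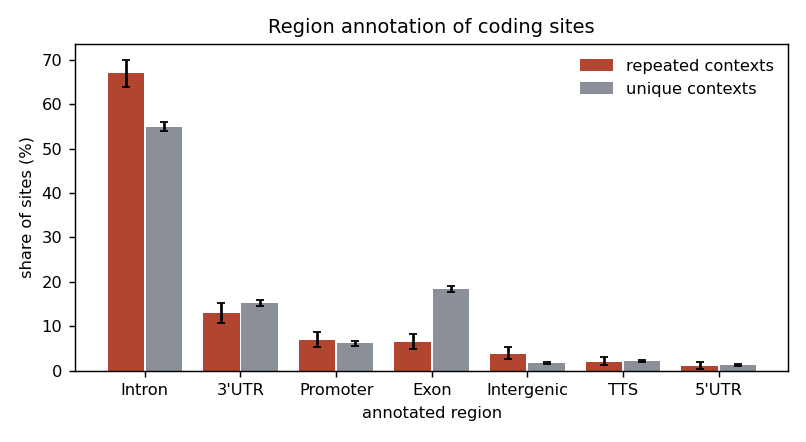
Share of coding sites (percent, vertical axis) in each annotated region (horizontal axis; TTS, transcription termination site), for repeated and unique contexts; error bars are 95% Clopper-Pearson intervals. The intronic share was 67.0% against 54.95% and the exonic share 6.45% against 18.4%.

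Assignment to a coding gene did not always mean the strand of that gene. For 745 repeated sites the strand of the gene was known from RefSeq, and 61 of them (8.19%, interval 6.32 to 10.4%) lay on the opposite strand, against 447 of 7970 unique sites (5.61%, 5.11 to 6.14%). Within introns the shares were 31 of 500 (6.2%, 4.25 to 8.69%) and 170 of 4381 (3.88%, 3.33 to 4.50%), whose intervals overlap. A listed site on the other strand within 2 bases was found at 9 repeated sites (1.00%, 0.459 to 1.89%) and 6 unique ones (0.0621%, 0.0228 to 0.135%). The same on the own strand was found at 11.6% and 11.5%. The plus strand held 56.7% of the repeated sites (53.4 to 60%) and 51.3% of the unique ones.

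Deletion levels of repeated and unique sites were close. The median was 12.5% (interval 11.5 to 13.2%, quartiles 8.3 and 18.2%) for repeated sites and 12% (11.8 to 12.1%, quartiles 7.7 and 18.4%) for unique sites, and the means were 14.7% and 14.5%. Median coverage was 31 reads (30 to 33) and 34 (33 to 34). At 15 to 29 reads the median level was 17.6% (16.7 to 18.5%, 413 sites) against 18.8% (18.5 to 18.8%, 3999 sites). At 30 to 59 reads it was 9.1% against 9.3%, and at 60 or more it was 6.8% (6.2 to 7.5%) against 6.6% (6.5 to 6.7%). Introns had 14.3% in both classes, at median coverages of 28 and 29 reads. Exons had 8.35% against 9.2%, the 3'UTR 9% against 9.7%, promoters 12.6% against 10.7% and intergenic sites 10.9% against 14.3%. Without runs of at least 5 uridines the order turned, with 11.1% for repeated and 11.9% for unique sites, and so did coverage, with 37 and 34 reads. Levels of at least 50% were reached by 9 repeated and 94 unique sites.

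**Figure D3:**
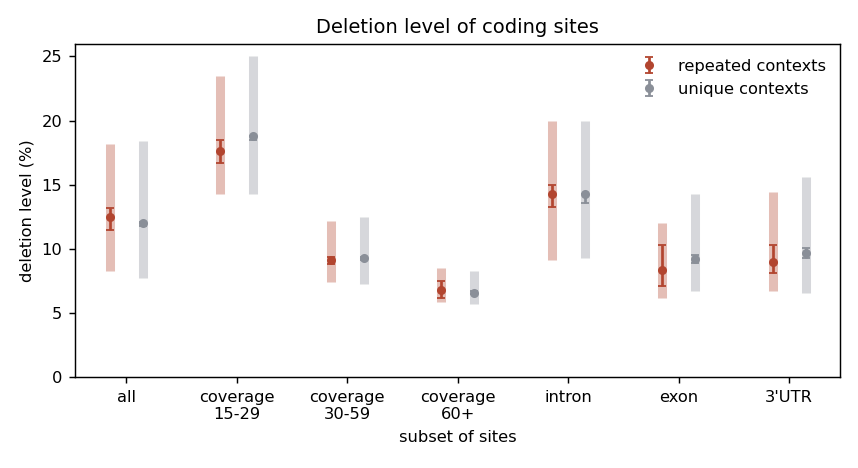
Deletion level (percent, vertical axis) of repeated and unique coding sites over all sites, 3 bins of coverage in reads, and 3 regions (horizontal axis); points are medians with 95% order-statistic intervals and pale bars run from the lower to the upper quartile. Medians fell with coverage in both classes, from 17.6% and 18.8% at 15 to 29 reads to 6.8% and 6.6% at 60 or more, and were 14.3% in introns for both.

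The sequence preferences of known synthases were searched in the contexts with the site as the central uridine, N standing for any base, H for any but G and R for a purine. The PUS7 form UNUAR, without its shared form URUAR, was found at 50 repeated sites (5.56%, interval 4.16 to 7.27%) and 292 unique ones (3.02%, 2.69 to 3.39%). Of these 50, 48 had a uridine run of at least 5 and all 50 lay on the plus strand, where the site was mostly listed at the last uridine of its run. URUAR was found at 6 repeated sites (0.667%) and 1.77% of unique ones, HRUAR, the PUS1 form, at 2% and 2.42%, and GUUCNA, the TRUB1 form, at 12 (1.34%, 0.692 to 2.32%) and 43 (0.445%, 0.322 to 0.599%). None of these 12 repeated sites lay in a tRNA gene. The GTTCGA contexts in tRNA genes, described further on, were listed at the first T and so were not counted in this form. No form was found at 90.2% of repeated and 92.1% of unique sites. As a deletion within a run cannot be assigned to 1 base, these shares do not say which uridine was modified. How the listed base of a run was chosen was not tested.

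The repeated sites were sorted into 6 exclusive classes by what their context is, defined after the values had been seen. Uridine runs of at least 5 made up 441 sites at 151 contexts, and other simple sequence 124 at 46. Sites inside RefSeq tRNA genes numbered 9 at 4 contexts, sites whose context was also listed at another structured RNA 17 at 7, and sites whose context was shared by at least 2 genes of 1 name stem 20 at 9, 1 of these contexts (NOTCH2, NOTCH2NLC and NBPF26) also holding a gene of another stem. The other 288 sites held 141 contexts. Median levels were 13.6% (13 to 14.3%) for uridine runs, 10.4% (8.6 to 12.8%) for simple sequence and 10.9% (10 to 12%) for the other sites, at median coverages of 27, 37.5 and 35 reads. Uridine runs were intronic at 71.2% and exonic at 8 of 441 sites (1.81%), the other sites intronic at 59.7% and exonic at 12.9%. Outside coding genes, the contexts of 238 repeated sites (26.5%) were listed too, against 149 unique ones (1.54%).

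Sites at copies of structured RNAs were most of the deepest repeated sites. Coverage of at least 1000 reads was reached by 10 repeated sites, although only 5 unique sites reached it. RYR2, the ryanodine receptor calcium channel of heart muscle, had 3 intronic sites on the plus strand of chromosome 1, at positions 237603202, 237603204 and 237603272. AAMDC had 3 intronic sites on the plus strand of chromosome 11, at 77886623, 77886625 and 77886693. The spacing was 2 and 68 bases in both genes. At the last of each set, in the 28S context shown above, RYR2 had 30.1% (3590 of 11927 reads, interval 29.3 to 30.9%) and AAMDC 7.3% (315 of 4311, 6.55 to 8.13%). The same context inside the 3 listed 28S rRNA genes of chromosome 21 had 10.2%, 9.8% and 9.7% at 141510 to 142398 reads. ENSG00000275110 on chromosome X had 29.2% (1723 of 5901) there. ENSG00000234877 on chromosome 2 had 6.2% (109 of 1763, 5.10 to 7.41%). The interval of RYR2 overlapped that of the chromosome X locus, and that of AAMDC overlapped the chromosome 2 locus. AAMDC and the chromosome 2 locus lay below the rRNA genes. How reads were divided between these copies was not tested.

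The other pair of positions in these genes ran the other way. At the first, RYR2 had 7.8% (110 of 1416 reads) and AAMDC 14.9% (74 of 497, interval 11.9 to 18.3%). At the second, RYR2 had 11.6% (169 of 1457) and AAMDC 28% (115 of 411, 23.7 to 32.6%). Between these 2 positions a site was listed on the minus strand in each copy, assigned to ENSG00000252290 with 8.7% (209 of 2402) beside RYR2 and to INTS4, an Integrator subunit, with 6% (28 of 467) beside AAMDC. Deletions were thus listed on both strands of the same few bases.

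ADGRB3, an adhesion G protein-coupled receptor, had the most reads of all repeated sites, with 6.3% (982 of 15591) at chromosome 6 position 68665198 on the minus strand, whereas its gene runs on plus. Its context was listed at U3, the small nucleolar RNA of ribosomal RNA processing, with 7% (30 of 426) on chromosome 14 and 9.9% (754 of 7617) on chromosome 2, at SNORD3E with 16.3% (841 of 5161) and at the pseudogenes VN1R96P with 6.2% (984 of 15866) and ENSG00000271014 with 64.9% (183 of 282). DIP2B, the other coding gene with this context, had 10.7% (3 of 28) on the strand opposite to its gene. A context of U6, the snRNA at the heart of the spliceosome, was listed in PCNX4 with 16.1% (10 of 62) and ACAP2 with 9.8% (21 of 214). The 5S context was listed in RBMS3, an RNA-binding protein gene, with 21.5% (29 of 135), in HINT3 with 15.3% (19 of 124), and in the 5S gene RNA5S14 with 5.3% (6 of 114). SLCO5A1 with 5.7% (426 of 7480), VPS13B with 12.2% (557 of 4563) and 6.2% (283 of 4557), and CNOT10 with 6.6% (249 of 3773) complete the deep sites of this class.

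A deep context with no structured RNA among its listed rows was that of HFM1, a helicase of meiosis, and CEACAM21. A structured RNA is seen here only if a site with the identical context was listed in it. Whether these loci lie in copies of a structured RNA was therefore not tested. HFM1 had 7.7% (813 of 10555 reads, interval 7.20 to 8.23%) at chromosome 1 position 91387396 and CEACAM21 8.3% (69 of 827, 6.55 to 10.4%) at chromosome 19 position 41564247, both intronic and on minus.
HFM1 and CEACAM21: ttgggTtttaa
Unique sites 6 and 7 bases away were also assigned to CEACAM21, whose gene runs on plus, with 45.3% (239 of 528) and 79% (470 of 595).

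The 9 sites in tRNA genes were assigned to the coding gene nearby. The T loop of tRNA, whose GTTCGA sequence holds a pseudouridine made by TRUB1 and its relatives, was in 3 of the 4 contexts. In all 3 the site was listed on the minus strand at the first T of the pair, the end at which most runs of that strand were listed. KNL1, a kinetochore scaffold, was named for a site in a serine tRNA gene with 8.5% (42 of 494 reads, interval 6.2 to 11.3%), ZBED9 for one with 7.6% (13 of 171) and PLLP for one in a leucine tRNA gene with 5.8% (7 of 120). CTC1 and HMGN4 were named for threonine tRNA genes with 23.5% (19 of 81, 14.8 to 34.2%) and 10.4% (16 of 154, 6.06 to 16.3%). VAC14 was named for a glycine tRNA gene with 23.1% (12 of 52) and NCOA7 for a glutamate tRNA gene with 12% (6 of 50). The fourth context lay in glycine tRNA genes, near HJV with 19.3% (11 of 57) and DPP9 with 5.1% (4 of 78). Of the 6 pairs 0 passed Fisher's exact test (two-sided, Benjamini-Hochberg adjustment over all pairs of the table, smallest adjusted p = 0.0694), 2 had an unadjusted p under 0.05, and the chi-square test also called 0.

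Duplicated genes of chromosome 1 held 3 of the 10 highest levels. NOTCH2, a Notch receptor, had 59.1% (13 of 22 reads, interval 36.4 to 79.3%), NBPF26 64% (16 of 25, 42.5 to 82.0%) and NOTCH2NLC, a partial human copy of NOTCH2, 56% (14 of 25, 34.9 to 75.6%), all intronic and in the same context. The 3 intervals overlapped, and Fisher's exact test called none of the 3 pairs, with unadjusted p-values of 0.771, 1 and 0.773. A further context in these duplications was listed in NBPF10 with 29.6% (8 of 27), NBPF14 with 13.2% (5 of 38) and NBPF19 with 20% (4 of 20). On the opposite strand and 1 base away, NOTCH2NLA had 22.9% (8 of 35) beside NBPF10 and NOTCH2NLB 17.6% (3 of 17) beside NBPF14. NOTCH2NLC and NBPF19 sites were 146 bases apart. NOTCH2 had a unique site, with 9.3% (4 of 43), also 146 bases from its repeated one. Read on opposite strands, the following 2 contexts overlap by 10 bases.
NBPF10, NBPF14 and NBPF19: agctaTcccga
NOTCH2NLA and NOTCH2NLB: cgggaTagctg

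Levels of 5 other pairs of duplicates rested on 3 to 5 deletion reads each, and none was called. GOLGA8A had 18.5% (5 of 27) and GOLGA8B 10.3% (3 of 29), NUDT4 5.2% (3 of 58) and NUDT4B 5.9% (4 of 68), NPIPB4 7.9% (3 of 38) and NPIPB5 14.8% (4 of 27), SRGAP2C 17.6% (3 of 17) and SRGAP2B 14.3% (3 of 21), TIMM23 29.4% (5 of 17) and TIMM23B 20% (3 of 15). Of the 13 pairs in the contexts of this class, 1 passed the test, that of PCDH11X and its paralogue, which were 24.5 percentage points apart, the widest gap of the 13 (adjusted Fisher p = 0.0323). Its context was listed in coding genes only, and the call was lost when only such contexts were tested (0 of 542 pairs called by Fisher's exact test, 41 with an unadjusted p under 0.05, 1 by chi-square). Gene families were counted beside the 8.51% of all coding sites that were repeated. Of 2 histone sites, 1 tubulin site and 9 heat shock protein sites none was repeated, and of 35 ribosomal protein sites 1 was, in RPL22L1 with 10.7%. Zinc finger genes held 30 repeated sites of 272 (11.0%), with a median level of 12.7% and no context shared between 2 of them. NBPF held 4 of 15 (26.7%), GOLGA 3 of 7 (42.9%), PCDH 4 of 27 (14.8%) and HNRNP genes 2 of 25 (8%), in HNRNPC and HNRNPF. Within each of NBPF, GOLGA and PCDH only 1 context was shared between genes of the family, and within HNRNP none was.

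Whether loci with the same context had the same level was tested on deletion reads with Fisher's exact test, two-sided, over all 2956 pairs of sites sharing a context in the whole table, with Benjamini-Hochberg adjustment. Among all of these, 460 pairs were called at an adjusted p of 0.05, or 15.6%. Of the 1182 pairs between different coding genes, 42 were called, or 3.55%, at 30 of the 358 contexts, and 92 had an unadjusted p under 0.05. The pairs share sites and are not independent. The call depended on the family of tests: with the 640 pairs whose context was also listed outside coding genes left out, 0 of the other 542 passed Fisher's test (smallest adjusted p = 0.0680), 41 had an unadjusted p under 0.05, and the chi-square test called 1. At the adjustment over the whole table, 19 of these 542 had been called. Of the 42 called pairs, 36 had the higher level at the locus with fewer reads. Most of the pairs not called had this direction too, and the minimum of 3 deletion reads favours it. It is therefore not a trait of the called pairs. The smaller coverage of a coding pair was 22 reads in the median, at which only a large difference can be seen.

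**Figure D4:**
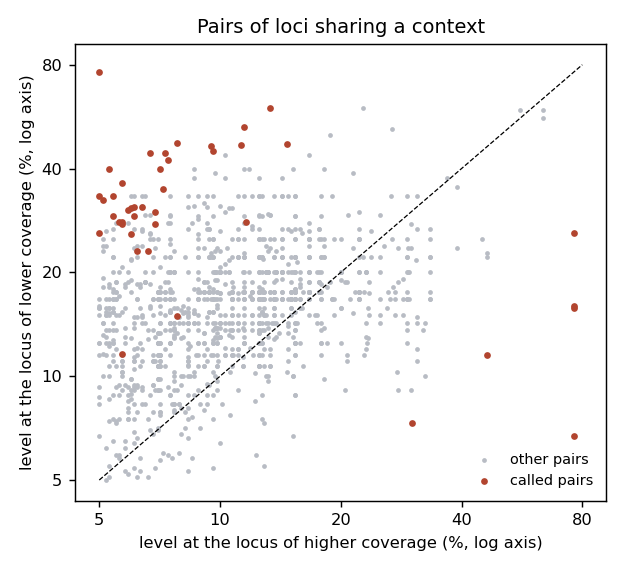
Deletion level (percent, log axes) at the locus of lower coverage (vertical) against that at the locus of higher coverage (horizontal) for the 1182 pairs of coding sites of different genes that share a context; red points are the 42 pairs called by Fisher's exact test with adjustment over the whole table and the dashed line marks equal levels. Of the called pairs, 36 lie above the line, as do most of the other pairs. The point at the upper left is CELF1 with 76.4% against CCND1 with 5%.

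The share called differed in count by class: 15 of 858 pairs in uridine runs (1.75%), 5 of 135 in simple sequence (3.70%), 6 of 14 at structured RNA contexts (42.9%) and 15 of 156 in the other class (9.62%). Their median smaller coverages were 20, 27, 118 and 28 reads, so power differed too. The median absolute difference between 2 coding loci of 1 context was 5.9 percentage points (interval 5.5 to 6.2, mean 8.00), against 6.7 (mean 9.41) over all pairs of unique sites. With both loci at 60 reads or more it was 2.7 over 31 pairs (mean 6.90), against 1.7 (mean 3.14). These 31 pairs included 6 called ones, each with a site of CELF1, RYR2 or AAMDC. Among them CELF1 and CCND1 were 71.4 points apart, and RYR2 and AAMDC 22.8 points in the 28S context. Such gaps weigh on the mean, and the mean without these pairs was not computed.

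The called pairs with the smallest p are given here, mostly 1 pair per context. RYR2 and AAMDC differed in the 28S context (adjusted Fisher p = 8.46e-232) and in the neighbouring one (adjusted p = 9.75e-05), and AAMDC with 28% differed from SLCO5A1 with 5.7% (adjusted p = 3.53e-41). At the position where they had 11.6% and 28%, RYR2 and AAMDC differed as well (Fisher's exact test, adjusted p = 2.97e-13). Outside these, CELF1 took 5 of the calls, in all 5 of its pairs. The next 4 pairs named have contexts listed in coding genes only, and each call was lost when only such contexts were tested (Fisher's exact test, smallest adjusted p = 0.0680). SETD3, the methyltransferase of actin, had 6.7% (7 of 105 reads) in an exon and HDLBP, the RNA-binding protein vigilin, 44.4% (8 of 18) in an intron (adjusted Fisher p = 0.00148). TTC28 had 7.4% (4 of 54) and UTRN, utrophin, 42.3% (11 of 26; adjusted Fisher p = 0.00361). NF2, the tumour suppressor merlin, had 60% (9 of 15) and MATR3, a nuclear matrix RNA-binding protein, 13.3% (8 of 60; adjusted Fisher p = 0.00415). EIF2B3, a subunit of the translation factor eIF2B, had 47.4% (9 of 19) and TSHZ2, a zinc finger gene, 7.8% (4 of 51; adjusted Fisher p = 0.00455). Deep pairs that were not called were CNOT10 and VPS13B with 6.6% and 6.2% (adjusted Fisher p = 0.874), HFM1 and CEACAM21 (0.893), and KNL1 and ZBED9 (1), while RYR2 with 11.6% and SLCO5A1 with 5.7% differed (3.32e-13).

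The highest level of a repeated site was that of CELF1, an RNA-binding protein that controls splicing and mRNA decay. It stood at chromosome 11 position 47470298 on the plus strand within the 3'UTR, on the strand opposite to the gene, with 76.4% (55 of 72 reads, interval 64.9 to 85.6%). The same 11 bases had 26.1% (6 of 23) in REEP3, 16% (4 of 25) in SRGAP2C, 15.8% (3 of 19) in PLD3, 6.7% (3 of 45) in TRIO, a guanine nucleotide exchange factor, and 5% (6 of 120, 1.86 to 10.6%) in CCND1, cyclin D1. The 7SL pseudogene RN7SL162P had 11.8% (4 of 34). The interval of CELF1 overlapped none of the other 6. Against CCND1, which also lies on chromosome 11, the adjusted Fisher p was 1.82e-24.

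The other 9 of the 10 highest repeated sites were all intronic. Beside the NOTCH2 copies, NF2 and EIF2B3 they were NUP205, a nuclear pore protein, with 60% (9 of 15 reads, interval 32.3 to 83.7%), SENP7, a SUMO protease, with 52.9% (9 of 17), SPECC1L-ADORA2A with 52% (13 of 25) and SIPA1L3 with 50% (8 of 16). None had more than 25 reads. Their contexts are shown because 2 of the 4 have a uridine run of at least 5 at the site and the other 2 a shorter one.
NUP205: gttttTggaaa
SENP7: gtgaaTtttga
SPECC1L-ADORA2A: gaaatTagtag
SIPA1L3: tttttTaattg

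**Figure D5:**
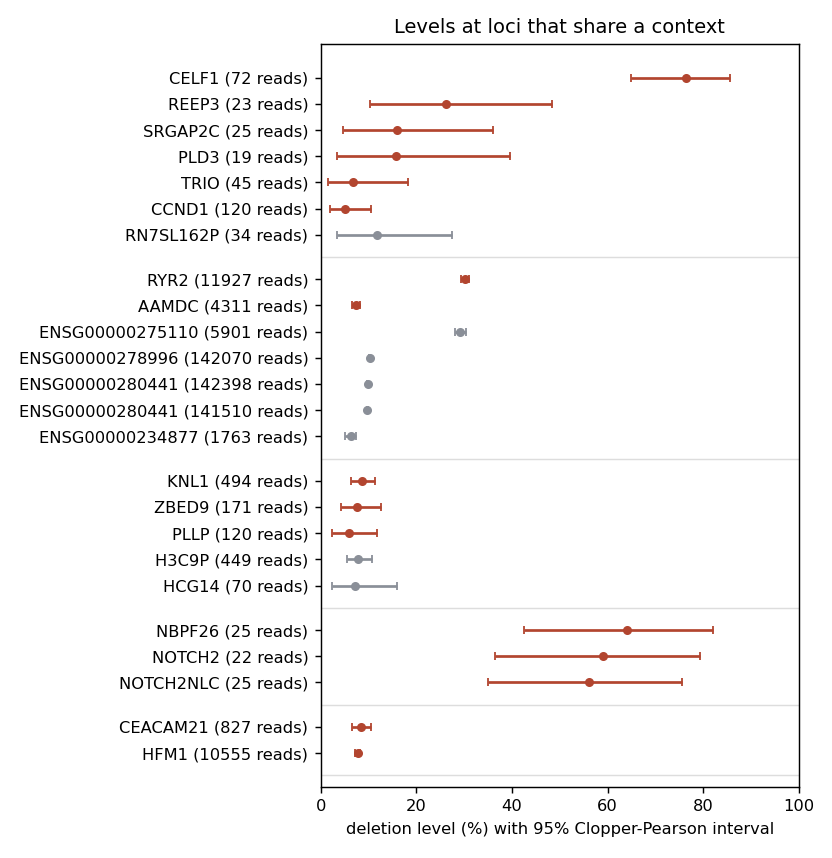
Deletion level (percent, horizontal axis) with 95% Clopper-Pearson intervals at every listed locus of 5 contexts (groups divided by lines; coverage in reads after each name), with coding loci in red and other loci in grey. From top to bottom these are the contexts of the CELF1 site, of the deepest RYR2 site, of the KNL1 site, of NOTCH2 and of HFM1. The interval of CELF1 overlaps no other of its context, that of RYR2 overlaps only ENSG00000275110 among the loci of its context, and the intervals within the NOTCH2 and HFM1 groups overlap.

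Against a fixed deletion background of 1%, with the deletion reads of each site put to a binomial test and Benjamini-Hochberg adjustment over at least 3.86e+06 tests, 37.5% of all 13398 sites and 36.3% of the unique coding sites passed. Of the repeated sites 308 did (34.3%, interval 31.2 to 37.5%), a share near both. By class, 31.5% of the uridine-run sites, 28.2% of the simple-sequence sites and 35.4% of the other sites passed, as did 7 of the 9 tRNA gene sites, 15 of the 17 structured RNA sites and 10 of the 20 sites of duplicated genes. The test is computed on the deletion reads, and with at least 8 of them 98 of 99 repeated and 929 of 958 unique sites passed. The background of the libraries themselves was not analysed here.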

How the data were processed

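PRAISE-seq deletion sites of HEK293T were analysed from 1 deposited table (hg38, per the submitters' processing notes). Aligner and caller: not given in the sources used here. Levels, a fraction in the deposited table, are printed as percentages, and the deposited coverage is a read count. The p-value and false discovery rate of each site are the authors' own. They were used only for the number of tests in the adjustment of the background test. Level times coverage gave whole deletion reads at all 13398 sites within 0.0005 of the level.

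Contexts were compared as written, and 50 repeated contexts with a listed row on chromosome 8 are not printed. Pairs of loci were tested with Fisher's exact test, two-sided, on deletion reads, adjusted by Benjamini-Hochberg over all pairs of the table. Sites are not replicates, so shares and medians carry 95% Clopper-Pearson or order-statistic intervals and no test. Pairs passing an adjusted p of 0.05 are called. Gene strands came from the RefSeq promoter table. Python 3.11.15, pandas 2.3.3 and scipy 1.17.1 were used. The pair test was run on simulated pairs drawn without the minima of level and deletion reads, so that run does not show how it behaves under them.

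Named are the 8 contexts under the most genes, the 10 sites of highest level and of highest coverage, the 8 pairs of smallest p and the 6 deepest pairs, each at most 1 per context, contexts with genes of 1 name stem and listed families. Sites at structured RNAs, and genes with many sites, were named after their values were seen. The rule, the lists and the classes were chosen with earlier results of these data known.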

Additional observations from a re-analysis of the deposited data

How the results depend on the processing

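Of 358 repeated contexts, 25 were found at coverage of at least 60, 89 at 5 deletion reads or more, 179 on the plus and 140 on the minus strand, and 1387 with 9 bases in place of 11. Without uridine runs of at least 5 there were 207, and 161 without simple sequence as well, both chosen after seeing the data. The level difference of 0.5 points (repeated minus unique) became -0.15 at 5 deletion reads or more, -0.8 without runs, and -0.7 without runs and simple sequence. With 1 value per context it was 1.4. That value sets the median over means of repeated contexts against the median of single unique sites, which are unlike measures. The coverage ratio of 0.912 became 1.28 at coverage of at least 60, 1.07 at 5 deletion reads or more, 1.09 without runs, 1.07 without runs and simple sequence, and 0.971 with 9 bases. The cause of these turns was not tested. The intronic difference of 12.01 points became 24.9, 8.27 and 6.78 at coverage of at least 60, with 9 bases and without runs and simple sequence, and stayed positive under all alternatives run. The 42 called pairs became 7 (of 31) at coverage of at least 60, 16 at an adjusted p of 0.01, and 0 (of 542) without contexts also listed outside coding genes, where fewer tests with very small p remain to set the threshold. That count of 0 is by Fisher's exact test; 41 pairs had an unadjusted p under 0.05 and the chi-square test called 1. The count of called coding pairs was 37 (of 1177) without CELF1 and 36 (of 1176) without sites near rRNA contexts. Over all pairs of the table, 460 of 2956 were called as reported and 374 at an adjusted p of 0.01. At coverage of at least 60, 288 pairs of the table were called, and the share of all pairs at that coverage was not computed. Without CELF1 454 were called, and without sites near rRNA contexts 427. The difference between loci of 5.9 points became 2.7 at coverage of at least 60. No paired analysis was possible because the table has no column per library. Most repeated sites rest on few deletion reads, with a median of 4.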
